A study of Mus musculus with 6 samples.

Results

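The genes described here encode the subunits of the mitochondrial respiratory chain and of ATP synthase. They were taken by symbol from the gene list of the deposited matrices, as every gene whose symbol begins with Ndufa, Ndufb, Ndufc, Ndufs, Ndufv, Uqcr, Cox4i, Cox5, Cox6, Cox7, Cox8 or Atp5, or with mt-Nd, mt-Co, mt-Cyt or mt-Atp. This gave 103 of 32285 genes, 90 encoded in the nucleus and 13 in mitochondrial DNA (symbols with the prefix mt-). Among the nuclear genes, 82 were counted as subunits, and 8 are Ndufaf genes, assembly factors of complex I that share the symbol prefix. Complex I (NADH dehydrogenase) had 39 nuclear subunit genes and 7 mt- genes, complex III (cytochrome bc1) 8 and 1, complex IV (cytochrome c oxidase) 18 and 3, and complex V (ATP synthase) 17 and 2. Ndufa4 is counted with complex I by its symbol, although its protein is now placed in complex IV.

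Complexes I, III and IV pass electrons to oxygen and pump protons across the inner mitochondrial membrane, and complex V uses the proton gradient to make ATP. Each of the 4 complexes combines subunits transcribed from mitochondrial DNA inside the organelle with nuclear-encoded subunits that are made in the cytosol and imported, so that both genomes have to supply a complex. In macrophages the balance between oxidative phosphorylation and glycolysis is known to shift with the activation state.

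Live CD45+ cells, that is leukocytes, were sorted from the kidneys of C57BL/6J mice of 8 weeks and sequenced with a droplet-based 3' single-cell kit. There are 6 libraries, 3 of control mice and 3, labelled Rhabdo, of mice in which rhabdomyolysis, the breakdown of skeletal muscle, had led to acute kidney injury. No genotype other than the strain is given for either group. How the injury was induced, the time after it, and whether each library is a separate animal are not given in the sources used here. The p-values therefore rest on the scatter of libraries alone, and this may be only technical.

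Barcodes with enough unique molecular identifiers (UMIs) were called cells, and each was put in a class by the UMIs of a short marker list: Cd3d and similar genes for T cells, Cd79a for B cells, Ncr1 for NK cells, C1qa for macrophages, Chil3 and Vcan for monocytes, and Flt3 and Xcr1 for dendritic cells. Macrophages numbered 1599, 1418 and 995 in the control and 428, 592 and 449 in the rhabdomyolysis libraries, while monocytes numbered 17, 14 and 8 in the control and 188, 223 and 316 in the rhabdomyolysis libraries. The third control library was left out of the monocyte comparison for its 8 cells. The other classes held 18 to 615 cells per library. The F4/80 antibody tag in the same libraries, which the gates did not use, was highest in the macrophage class. The median F4/80 tag count was 34 to 93 UMIs per macrophage and at most 3 per T, NK or B cell. It was 11 to 25 per monocyte and 2 to 14 per dendritic cell. Depth moved with the groups. Control macrophages had median totals of 3589, 3562.5 and 4067 UMIs by library and rhabdomyolysis macrophages 6058.5, 4799 and 6951, whereas T cells went the other way, with 3773, 3783.5 and 3669.5 in controls against 2278.5, 2983.5 and 3371.5. Any pair of libraries shared at most 3 barcodes among its gated cells. The macrophages of the second rhabdomyolysis library held 3719 CPM of hemoglobin and other erythroid genes, against 1.60 to 26.2 CPM in the other 5 libraries. CPM (counts scaled to a common total) are taken over the summed UMIs of a class and library.

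As shares of all UMIs of a class, the 82 nuclear subunit genes stood lowest in control macrophages and higher in rhabdomyolysis macrophages, while the 13 mt- genes stood lower in rhabdomyolysis in each of the 6 classes. These sums over members are given as a description, without a test. In macrophages the nuclear subunits made up 1.24%, 1.19% and 1.31% of UMIs in the control and 2.15%, 1.87% and 2.31% in the rhabdomyolysis libraries. In T cells they made up 2.15%, 2.05% and 2.11% in control and 1.97%, 1.66% and 1.94% in rhabdomyolysis. The 3 rhabdomyolysis macrophage libraries thus reached the range of the T cell libraries, and all of them lay above the control macrophages. Monocytes had 2.11% and 2.03% in control and 2.32%, 2.35% and 2.40% in rhabdomyolysis. Dendritic cells had 1.79%, 1.74% and 1.79% in control and 1.89%, 1.80% and 2.01% in rhabdomyolysis. NK cells had 2.19%, 2.25% and 2.27% against 2.17%, 1.90% and 2.32%, with overlapping groups, and B cells 1.53%, 1.57% and 1.56% against 1.51%, 1.37% and 1.43%. Outside the macrophages, no class had a group mean that differed by more than 0.289 percentage points, the difference in monocytes.

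The mt- genes made up 2.66%, 2.30% and 2.48% of macrophage UMIs in the control and 1.40%, 2.08% and 1.84% in the rhabdomyolysis libraries. B cells had the highest shares, 3.73%, 3.31% and 3.34% against 2.09%, 2.77% and 2.73%, and dendritic cells the lowest, 1.77%, 1.51% and 1.66% against 1.03%, 1.26% and 1.30%. The groups did not overlap in any of the 6 classes. The log2 ratio of mt- to nuclear subunit UMIs moved most in macrophages, from 0.99 ± 0.0953 (SD, n = 3) to -0.27 ± 0.391, a difference of -1.25. The difference was -0.56 in dendritic cells, -0.52 in monocytes, -0.45 in NK cells, -0.35 in B cells and -0.14 in T cells. In NK and T cells the libraries of the groups overlapped. Among macrophages of 3000 to 6000 UMIs, a window set after the depth difference was seen, the difference was -0.73, and with free RNA subtracted it was -0.11 in dendritic cells and -0.22 in monocytes. Per complex, the macrophage ratio moved by -1.29 in complex I, -1.22 in complex III, -1.27 in complex IV and -1.18 in complex V.

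**Figure D1:**
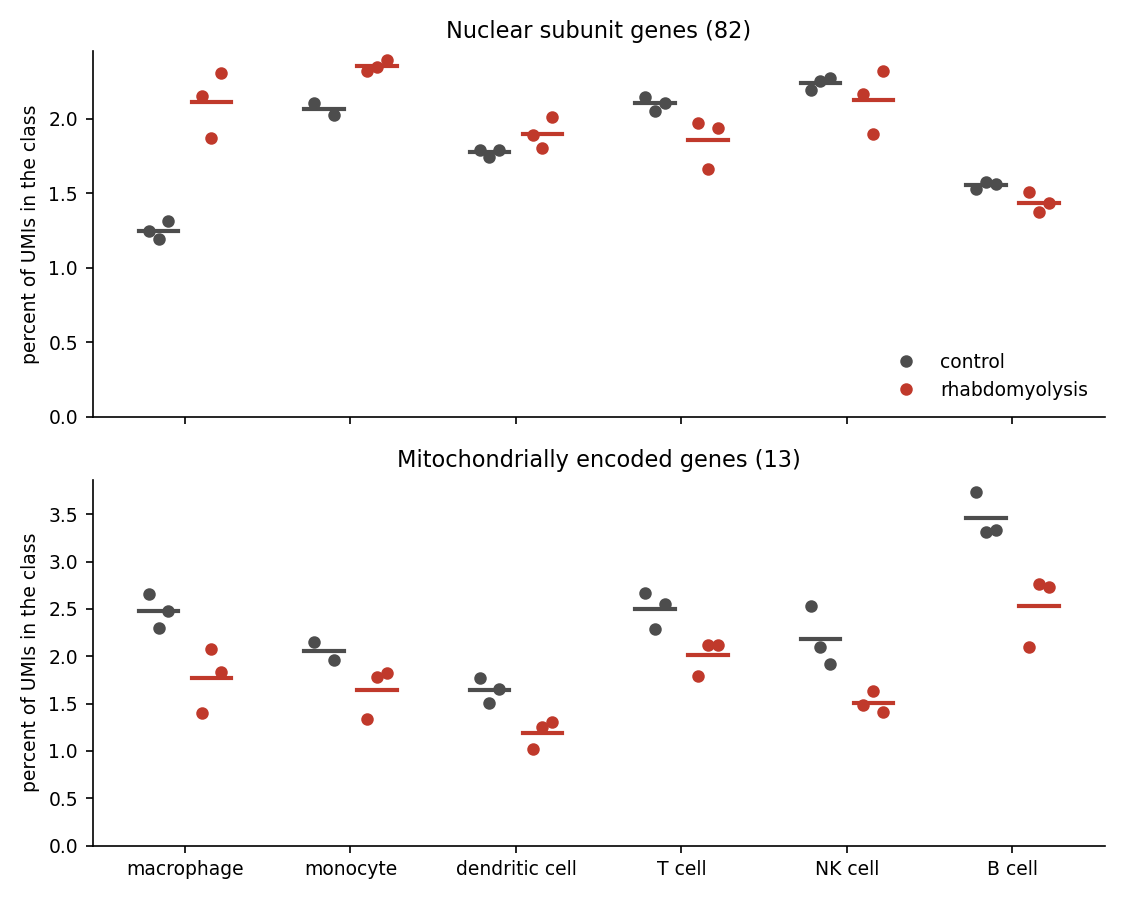
Percent of all UMIs of a class (y axis) held by the 82 nuclear subunit genes (top) and the 13 mt- genes (bottom), by cell class. Each point is a library, grey for control and red for rhabdomyolysis, and lines are group means. Macrophages are the class in which the red points of the top panel stand farthest above the grey ones.

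Counted per cell and not as a share, the macrophages held 48.5, 44.5 and 58.3 nuclear subunit UMIs per cell in the control and 157, 105 and 190.0 in the rhabdomyolysis libraries. For the mt- genes, control macrophages held 103, 85.7 and 110.0 and rhabdomyolysis macrophages 102, 117 and 151 UMIs per cell, with overlap between the groups. The lower mt- share in macrophages thus stood beside a higher total of UMIs per cell. UMIs per cell also depend on how deeply a library was sequenced, so they are not compared by a test.

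Nuclear members rose in macrophages across all 4 complexes, in the edgeR quasi-likelihood test of counts summed per library with Benjamini-Hochberg (BH) adjustment over all genes tested. Of 83 tested nuclear members, 66 rose and 0 fell, in a comparison where 41.3% of all 10015 genes were called, 20.5% higher and 20.8% lower. The median log2 change was 0.90 over the nuclear members and -0.05 over all genes. The rhabdomyolysis and control libraries did not overlap in 69 of the 83, against 53.3% of all genes. With an unadjusted p under 0.05 stood 71 of the 83, and DESeq2 called 68 higher and none lower. Among macrophages of 3000 to 6000 UMIs, 42 members rose, all nuclear, where 21.7% of all genes were called. The monocyte marker list was at 8.83, 8.13 and 7.01 CPM in control macrophages and 748, 517 and 801 CPM in rhabdomyolysis macrophages, and its part in the result was not tested beyond leaving out the cells positive for both lists, after which 63 nuclear members rose. Malat1, a nuclear RNA whose share was used to drop damaged cells, also differed, with median shares of 3.57%, 4.37% and 3.65% of UMIs per macrophage in control and 1.61%, 2.75% and 1.83% in rhabdomyolysis. Its minimum removed 1394 of 5253, 1914 of 5214 and 2916 of 5574 barcodes of at least 500 UMIs in the control libraries, and 2316 of 3404, 3325 of 5075 and 4891 of 6561 in the rhabdomyolysis libraries. With the minimum lifted, 70 nuclear members rose in macrophages and none fell. The counts by DESeq2, without the cells positive for both lists and without the Malat1 minimum are of members alone. The share of all genes called is not given for them.

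In complex I, 30 of 38 tested subunit genes rose. Ndufa12, an accessory subunit, was at 68.8, 61.6 and 78.0 CPM in the control libraries and 198, 146 and 231 CPM in the rhabdomyolysis libraries. The 2 groups did not overlap, and the log2 change was 1.53 ± 0.207 (SE, edgeR adjusted p = 0.000763). Ndufa11, an accessory subunit of the membrane arm, was at 60.2, 62.2 and 59.5 CPM in the control libraries and 175, 149.9 and 165 CPM in the rhabdomyolysis libraries. All rhabdomyolysis libraries stood above all control libraries, with a log2 change of 1.51 ± 0.15 (edgeR adjusted p = 0.000189). Among the nuclear core subunits, which form the arm that takes electrons from NADH, Ndufv1, Ndufv2, Ndufs3, Ndufs8 and Ndufs7 rose: Ndufv1 changed by 1.22, Ndufv2 by 1.12, Ndufs3 by 1.05, Ndufs8 by 0.80 and Ndufs7 by 0.55 on the log2 scale. Ndufs1 at 0.30 (edgeR adjusted p = 0.225) did not pass the test. Apart from Ndufa12 and Ndufa11, the complex I genes named here were chosen after their values were seen. Other complex I subunits that did not pass included Ndufa4, Ndufa6, Ndufa9, Ndufa13, Ndufb3 and Ndufc2, with log2 changes from -0.05 to 0.46. Of the 8 assembly factors, Ndufaf4, Ndufaf6 and Ndufaf8 rose, with log2 changes of 1.09, 0.95 and 0.92.

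In complex III, 6 of 8 subunit genes rose. Uqcrq, a small accessory subunit, had the largest change of any nuclear member in macrophages, at 119, 114 and 137 CPM in the control libraries and 421, 335 and 455 CPM in the rhabdomyolysis libraries. Every rhabdomyolysis library stood above every control library, and the log2 change was 1.78 ± 0.185 (edgeR adjusted p = 0.00023). The Rieske iron-sulfur protein gene Uqcrfs1 changed by 0.88, and the core protein gene Uqcrc1 by 0.50. Uqcrh, the hinge protein gene, at -0.11 ± 0.163, and Uqcrc2, at 0.29 ± 0.142, did not pass the test. In complex IV, 10 of 12 tested subunit genes rose. Cox5a, a subunit on the matrix side, was at 145, 135 and 158 CPM in the control libraries and 399.7, 268 and 529 CPM in the rhabdomyolysis libraries, and its log2 change was 1.52 ± 0.241 (edgeR adjusted p = 0.00153). The second rhabdomyolysis library was the lowest of its group for Cox5a, yet above all control libraries. Cox5b changed by 1.11, Cox6c by 1.12 and Cox7b by 1.10. The genes of complexes III and IV named beside Uqcrq and Cox5a were chosen after their values were seen.

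In complex V, all 17 nuclear subunit genes rose, with log2 changes from 0.56 (Atp5a1, the alpha subunit of the catalytic head) to 1.52 (Atp5g1). Atp5g1 is 1 of 3 genes for the c subunit, which forms the rotating ring in the membrane. It was at 183, 159.8 and 186 CPM in the control libraries and 515, 330.2 and 594 CPM in the rhabdomyolysis libraries, with no overlap and a log2 change of 1.52 ± 0.227 (edgeR adjusted p = 0.0012). The other c subunit genes changed by 1.32 ± 0.179 (Atp5g3) and 0.68 ± 0.151 (Atp5g2). Atp5b, the catalytic beta subunit, changed by 0.90 ± 0.194, and Atp5e, the epsilon subunit, by 1.15 ± 0.179. The complex V genes other than Atp5g1 were chosen for their known roles after the values were seen.

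**Figure D2:**
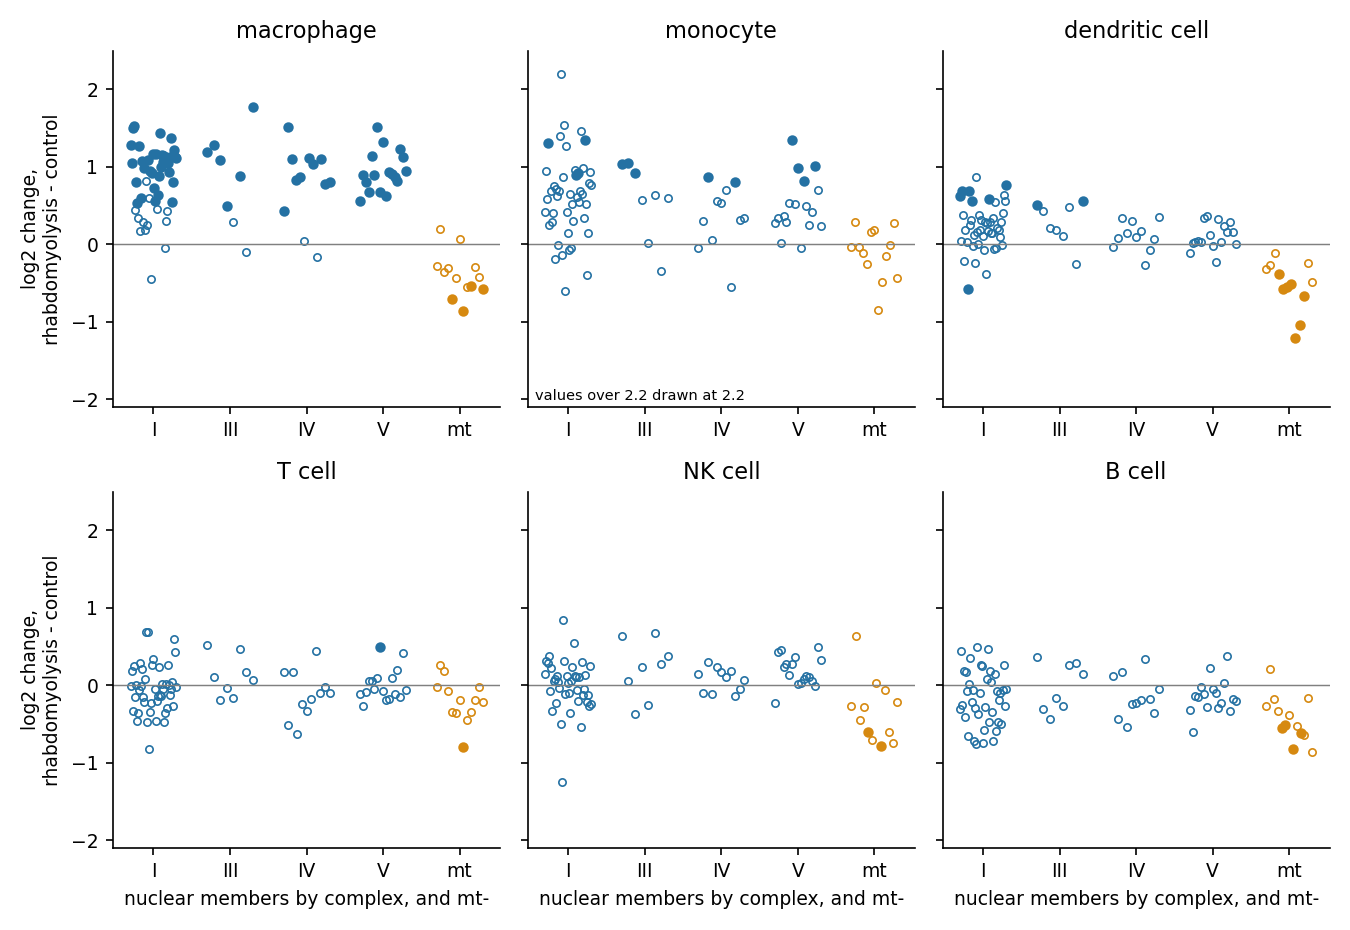
Log2 change of each tested member (y axis, rhabdomyolysis minus control) by cell class, with nuclear members in blue by complex and mt- members in orange. Filled points passed the edgeR test with BH adjustment and open points did not. In macrophages most blue points are filled and above 0, and filled orange points lie below 0 in every class except monocytes. Ndufaf2 in monocytes, with 0 UMIs in both control libraries, is drawn at the upper limit.

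Promoter windows of 250 bases before to 50 after the start were matched for 72 of the 90 nuclear members, from RefSeq with build GRCm38.p6. They were searched on both strands for GCATGCG, the core of the site of nuclear respiratory factor 1, and for CCGGAAG, an ETS family core, motifs known from promoters of respiratory genes, and for GGGCGGG and CCAAT. The letters GCATGCG were present in 12 of 72 members (16.7%), against 4.96% of 17492 protein-coding genes with a window. The letters CCGGAAG were present in 17 of 72 (23.6%), against 12.9%. GGGCGGG stood in 34.7% of the members and 36.9% of protein-coding genes, and CCAAT in 44.4% and 42.3%. Of 55 matched members that rose in macrophages, 10 held the first and 15 the second, as did 2 and 2 of the 14 that were tested and not called. These shares are descriptions, not tested, and a match of letters is not a bound site. Matches of the 4 motifs were counted separately and may share bases.

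The last 100 bases before the start are shown for the 4 risen members that hold GCATGCG there, because among the motifs it had the lowest share over protein-coding genes. In each of the 4 the motif stands on both strands at overlapping bases, and the capitals mark both matches. The stretch of Ndufa11 is chr17:56717662-56717761 (plus strand), that of Ndufa8, a complex I subunit, chr2:36049339-36049438 (minus strand), that of Atp5k, a small membrane subunit of ATP synthase, chr5:108434400-108434499 (minus strand), and that of Atp5g2 chr15:102671048-102671147 (minus strand). The capitals begin 59, 9, 49 and 41 bases before the start. Each is written 5' to 3' on the strand of the gene.
Ndufa11: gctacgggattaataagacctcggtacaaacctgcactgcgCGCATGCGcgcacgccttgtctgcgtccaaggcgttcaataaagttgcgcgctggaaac
Ndufa8: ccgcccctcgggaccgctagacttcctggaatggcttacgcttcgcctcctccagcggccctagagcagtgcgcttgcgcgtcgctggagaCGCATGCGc
Atp5k: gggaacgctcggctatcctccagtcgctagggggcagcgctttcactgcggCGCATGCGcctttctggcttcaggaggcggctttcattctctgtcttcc
Atp5g2: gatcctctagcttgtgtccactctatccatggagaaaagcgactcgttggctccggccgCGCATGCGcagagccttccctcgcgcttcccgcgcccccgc
For CCGGAAG, in capitals on either strand, the stretch is shown for the member of each complex with the largest macrophage change that holds the whole motif there: Ndufs3 at chr2:90904722-90904821 (minus strand), Uqcr11 at chr10:80406822-80406921 (minus strand), Cox6b1 at chr7:30626115-30626214 (minus strand) and Atp5j at chr16:84834977-84835076 (minus strand).
Ndufs3: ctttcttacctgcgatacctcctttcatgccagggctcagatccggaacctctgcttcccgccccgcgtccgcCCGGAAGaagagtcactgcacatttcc
Uqcr11: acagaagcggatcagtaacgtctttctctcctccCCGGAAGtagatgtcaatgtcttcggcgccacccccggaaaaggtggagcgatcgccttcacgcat
Cox6b1: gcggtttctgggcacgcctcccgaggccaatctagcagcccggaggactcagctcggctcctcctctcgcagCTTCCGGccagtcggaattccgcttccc
Atp5j: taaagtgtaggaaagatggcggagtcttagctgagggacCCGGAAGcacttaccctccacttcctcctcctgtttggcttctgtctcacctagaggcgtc
Ndufa12 at chr10:94198935-94199034 (plus strand) and Cox5a at chr9:57521132-57521231 (plus strand), with larger changes than the 8 members above, hold neither set of letters in their windows, which says nothing of the factors.
Ndufa12: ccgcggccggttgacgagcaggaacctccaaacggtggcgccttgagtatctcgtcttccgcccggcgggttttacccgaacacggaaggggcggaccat
Cox5a: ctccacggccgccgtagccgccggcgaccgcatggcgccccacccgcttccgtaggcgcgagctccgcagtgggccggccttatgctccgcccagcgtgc

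No mt- member rose in macrophages by the edgeR test, and 4 of 13 fell, with a median log2 change of -0.43 over the 13. That is a share not far above the 20.8% of all genes that were lower in this comparison. Unadjusted p-values under 0.05 were found for 6 of them, and DESeq2 called 3, all lower. The complex I gene mt-Nd2 was at 1194, 1026 and 1051 CPM in the control libraries and 328, 629 and 766 CPM in the rhabdomyolysis libraries. Its groups did not overlap, and the log2 change was -0.86 ± 0.264 (edgeR adjusted p = 0.028). The complex IV gene mt-Co3 was at 4595, 3868 and 4166 CPM in the control libraries and 1779, 2986 and 2587 CPM in the rhabdomyolysis libraries, a log2 change of -0.71 ± 0.194 (adjusted p = 0.0177). The complex I genes mt-Nd4 and mt-Nd6 changed by -0.54 ± 0.164 (adjusted p = 0.0266) and -0.58 ± 0.192 (adjusted p = 0.0384). mt-Nd6, the only 1 of the 13 encoded on the other strand of mitochondrial DNA, was at 17.0, 20.6 and 20.6 CPM in the control libraries and 11.2, 13.8 and 11.9 CPM in the rhabdomyolysis libraries. By complex, 3 of 7 mt- genes of complex I fell, 0 of 1 of complex III, 1 of 3 of complex IV and 0 of 2 of complex V.

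The other 9 mt- genes did not pass the test in macrophages. mt-Atp6, which encodes a membrane subunit of ATP synthase, was at 6458, 5428 and 5890.0 CPM in the control libraries and 4009, 5494 and 4430.5 CPM in the rhabdomyolysis libraries, and overlapped between the groups. mt-Co1 and mt-Co2, the catalytic subunits of complex IV, were at -0.36 ± 0.21 and -0.31 ± 0.213, again with overlap. mt-Cytb, the cytochrome b of complex III, was at 2599, 1983 and 2361 CPM in the control libraries and 1672, 1400.4 and 1787 CPM in the rhabdomyolysis libraries, a log2 change of -0.44 ± 0.17 (edgeR adjusted p = 0.0643). For mt-Nd3 the log2 change was -0.55, for mt-Nd5 -0.43, for mt-Nd4l -0.29, for mt-Nd1 0.07 and for mt-Atp8 0.20. The second rhabdomyolysis library was the highest of its group for mt-Nd1, mt-Co1, mt-Co2, mt-Co3 and mt-Atp6, and without it 7 mt- members fell. Without the first or the third control library no mt- member was called, and without the second control or the first rhabdomyolysis library 1 was. Of 21 alternatives, mt-Nd6 lost its call in 11, mt-Nd4 in 8, mt-Nd2 in 7 and mt-Co3 in 6.

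Free RNA, which leaks from broken cells and is captured with every cell, differed between the groups in the same direction as the macrophage sums, lower for mt- and higher for nuclear members. In barcodes of at most 100 UMIs, the 13 mt- genes made up 18.3%, 15.6% and 14.9% of UMIs in the control and 4.08%, 6.00% and 7.33% in the rhabdomyolysis libraries. The 90 nuclear members made up 1.90%, 1.91% and 2.04% in the control and 2.74%, 2.48% and 2.93% in the rhabdomyolysis libraries, again without overlap. Macrophages held 142, 155 and 227 UMIs of kidney tubule genes other than Napsa in the control and 15, 11 and 21 in the rhabdomyolysis libraries. Scaled by these genes, free RNA came to 3.80% to 5.04% of macrophage UMIs, with overlap between the groups. That share would carry 27.1%, 30.7% and 30.2% of the macrophage mt- UMIs in control and 14.6%, 14.4% and 15.2% in rhabdomyolysis. With it subtracted, no mt- member was called in macrophages and the median of the 13 went to -0.14, while 67 nuclear members rose. The share of all genes called after the subtraction is not given. No mt- member was called either when the minimum share of Malat1 was lifted, or among cells of 3000 to 6000 UMIs, where the medians were -0.28 and -0.09. The limit of 15% mitochondrial UMIs acts on the measured genes themselves. It removed 208, 190 and 146 barcodes in the control and 19, 51 and 64 in the rhabdomyolysis libraries. With a limit of 5% the median was -0.21 in macrophages, -0.04 in monocytes and -0.40 in dendritic cells. It was -0.04 in T cells, -0.19 in NK cells and -0.47 in B cells.

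**Figure D3:**
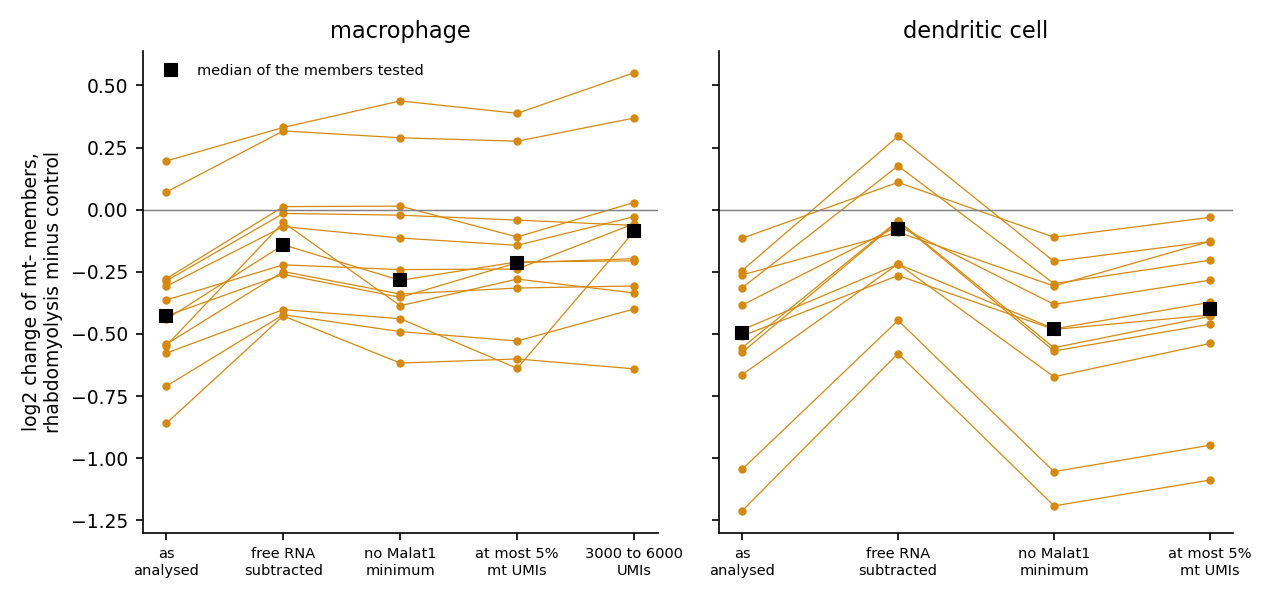
Log2 change of each mt- member (y axis, rhabdomyolysis minus control) in macrophages and dendritic cells under different treatments of the cells and of free RNA (x axis). Thin lines join a gene, and black squares are medians of the members tested. In both classes the squares are closer to 0 with free RNA subtracted.

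**Figure D4:**
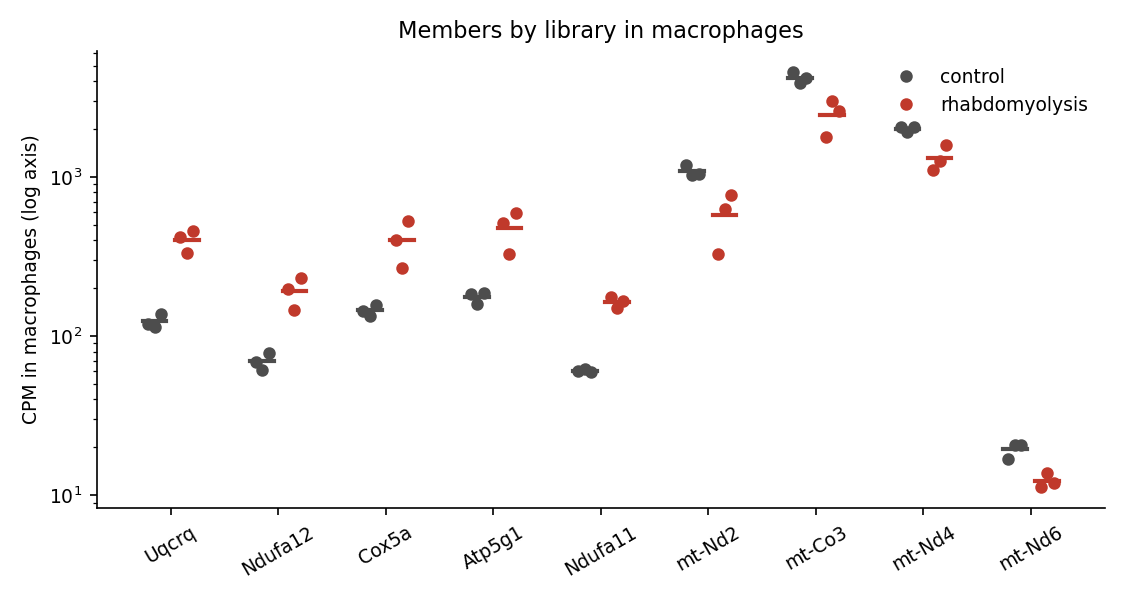
CPM in macrophages (log axis) of the 5 nuclear members with the largest change and the 4 mt- members that fell. Points are libraries, grey for control and red for rhabdomyolysis, and lines are group means. No red point lies within the grey points of the same gene.

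In monocytes the comparison rests on 2 control libraries of 17 and 14 cells against 3 rhabdomyolysis libraries. Both control libraries were under the planned minimum of 20 cells, so these calls exist only with the minimum lowered to 10. Of 81 tested nuclear members, 13 rose by the edgeR test and none fell, where 8.39% of all genes were called, 5.28% higher and 3.11% lower. DESeq2 called 11, and 38 had an unadjusted p under 0.05. The median over the 74 tested nuclear subunits was 0.54, and over all genes 0.18. Atp5g1 was at 215 and 209 CPM in the control libraries and 464, 471 and 448 CPM in the rhabdomyolysis libraries, a log2 change of 1.35 ± 0.218 (edgeR adjusted p = 0.00125). Ndufs5, a complex I accessory subunit, was at 98.4 and 69.8 CPM in the control libraries and 191, 161 and 199 CPM in the rhabdomyolysis libraries, a log2 change of 1.34 ± 0.31 (adjusted p = 0.0142). Ndufa12 changed by 1.31 ± 0.33, and the small complex III subunits Uqcr11 and Uqcr10 by 1.05 ± 0.255 and 1.03 ± 0.237. Of 17 alternatives, Uqcr11 lost its call in 5, Ndufa12 in 4, Uqcr10 in 3 and Ndufs5 in 2, and Atp5g1 in none. The control values of Ndufa12 rest on 14 UMIs and those of Atp5g1 on 45. None of the 13 mt- members was called by edgeR or DESeq2, and 1 had an unadjusted p under 0.05. Scaled by library totals, monocytes had 4 members higher and 3 lower, with the median of all genes at -0.05. Without the first control library 1 member was called, without the second 2, and without the first or the third rhabdomyolysis library 8. With free RNA subtracted 1 mt- member rose. Monocytes held 3 and 1 tubule UMIs in the control and 3, 4 and 3 in the rhabdomyolysis libraries, all under 10. The subtraction there took its scale from all gated cells of a library. The monocyte list itself stood at 2326 and 2333 CPM in the control and 11469, 10924 and 8806 CPM in the rhabdomyolysis libraries, and classical monocyte genes at 3409 and 5074 and 1961, 2176 and 2429.6, so the cells of the groups differed in their markers, and the part of this in the result was not tested.

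In dendritic cells most calls among the members were falls of mt- genes or small rises of complex I and III genes. By the edgeR test, 8 of 80 tested nuclear members rose and 1 fell, and 7 of 12 tested mt- members fell. Of all genes 14.1% were called, 7.52% higher and 6.6% lower. The nuclear rises, 10.0% of those tested, were thus not far above the share of all genes. Ndufv3, an accessory subunit of the complex I module that oxidises NADH, was at 84.2, 96.0 and 82.9 CPM in the control libraries and 130.0, 135 and 163 CPM in the rhabdomyolysis libraries, a log2 change of 0.77 ± 0.173 (edgeR adjusted p = 0.00682). The other largest rises were Ndufa5 at 0.69 ± 0.199, Ndufa11 at 0.69 ± 0.182, Ndufb6 at 0.59 ± 0.185 and Uqcrq at 0.56 ± 0.152. These calls were not firm: of 19 alternatives, Ndufb6 lost its call in 12, Ndufa5 in 7, and Ndufa11 and Uqcrq in 6 each, while Ndufv3 lost it in 2. Ndufa4 fell, from 327, 304 and 302 CPM in control to 235, 148 and 231 CPM in rhabdomyolysis, a log2 change of -0.58 ± 0.176 (adjusted p = 0.0378), a call lost in 7 of the 19. No nuclear member of complex IV or V was called, of 11 and 17 tested, and unadjusted p-values under 0.05 were found for 2 in each of these.

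Among the mt- members of dendritic cells, mt-Nd2 was at 769.9, 653 and 709.9 CPM in the control libraries and 130.0, 330.0 and 391 CPM in the rhabdomyolysis libraries, a log2 change of -1.21 ± 0.24 (edgeR adjusted p = 0.00293). mt-Nd3 was at 140.4, 151 and 149 CPM in the control libraries and 31.0, 56.1 and 93.1 CPM in the rhabdomyolysis libraries, a log2 change of -1.05 ± 0.233 (adjusted p = 0.00658). In both genes the rhabdomyolysis libraries lay below all control libraries, the first of them lowest. This first library held 18 dendritic cells, under the planned minimum of 20, and entered only with the minimum lowered to 10. mt-Nd4, mt-Co3, mt-Cytb, mt-Nd1 and mt-Co2 also fell, by 0.66, 0.57, 0.56, 0.51 and 0.38 on the log2 scale. Among the 19 alternatives, mt-Nd1 lost its call in 12 and mt-Co2 in 11. mt-Atp6 (-0.31 ± 0.111), mt-Nd5 (-0.48 ± 0.182), mt-Atp8 (-0.26 ± 0.296), mt-Nd4l (-0.25 ± 0.192) and mt-Co1 (-0.12 ± 0.118) did not pass. With free RNA subtracted no mt- member was called and the median went from -0.50 to -0.08. That subtraction was scaled by 42, 29 and 22 tubule UMIs in the control libraries. The rhabdomyolysis libraries held 0, 2 and 1, under the minimum of 10, and were scaled by all gated cells of their library. DESeq2 called 3 members higher and 5 lower, and library totals gave 5 higher and 9 lower, beside 8 and 8 in the edgeR test. Without the first control library 3 members were called, without the second or the third 6, without the first rhabdomyolysis library 9, and without the second 19. The dendritic cell marker list itself stood at 1437, 1563 and 1612 CPM in the control and 829.7, 442 and 608 CPM in the rhabdomyolysis libraries, and its part in the result was not tested.

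In lymphocytes few nuclear members were called. In T cells 1 of 81 tested nuclear members rose by the edgeR test, where 9.48% of all genes were called, 5.56% higher and 3.92% lower, and 15 had an unadjusted p under 0.05. It was Atp5g2, a c subunit gene, at 560.1, 553 and 548 CPM in the control libraries and 692, 764 and 615 CPM in the rhabdomyolysis libraries, a log2 change of 0.50 ± 0.143 (edgeR adjusted p = 0.0359), and lost its call in 7 of 21 alternatives. Of the 13 mt- members 1 fell, mt-Nd2, at 1276, 1139.9 and 1198 CPM in the control libraries and 378, 671 and 751 CPM in the rhabdomyolysis libraries, a log2 change of -0.80 ± 0.188 (adjusted p = 0.0107). The median change was -0.05 over the nuclear and -0.19 over the mt- members. Scaled by library totals, which put the median of all genes at -0.19 instead of -0.01, none rose and 9 fell, 5 of them mt-, and DESeq2 called 5 higher and 1 lower. Without any 1 of the control libraries no member was called in T cells, without the first rhabdomyolysis library 1 was, without the second 4 and without the third 10.

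In NK cells none of 76 tested nuclear members was called by edgeR or DESeq2, where edgeR called 3.94% of all genes (2.2% higher, 1.73% lower), and 6 had an unadjusted p under 0.05. The mt- members mt-Nd2 and mt-Co3 fell, 2 of 12 tested. mt-Nd2 was at 1293, 1088 and 969 CPM in the control libraries and 442, 602 and 677 CPM in the rhabdomyolysis libraries, a log2 change of -0.79 ± 0.213 (edgeR adjusted p = 0.0417), and mt-Co3 changed by -0.61 ± 0.159 (adjusted p = 0.0354). Neither was called by DESeq2, with free RNA subtracted, or without any 1 of the control libraries or the first rhabdomyolysis library. Without the third rhabdomyolysis library 1 member was called, and without the second 7. Library totals gave 5 mt- calls, with the median of all genes at -0.18 instead of -0.04.

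In B cells none of 77 tested nuclear members was called by edgeR or DESeq2, where edgeR called 4.41% of all genes (2.23% higher, 2.18% lower), and 11 had an unadjusted p under 0.05. Of the 13 mt- members, 4 fell. mt-Nd2 was at 1735, 1486 and 1647 CPM in the control libraries and 462, 884 and 1158 CPM in the rhabdomyolysis libraries, a log2 change of -0.83 ± 0.194 (edgeR adjusted p = 0.0126). mt-Nd4 changed by -0.62 ± 0.138, mt-Co3 by -0.55 ± 0.148 and mt-Cytb by -0.52 ± 0.136. With free RNA subtracted 2 mt- and 2 nuclear members fell, DESeq2 called 2 mt- members, and without any 1 of the control libraries no member was called. Without the second rhabdomyolysis library 6 members were called and without the third 9, of which 3 were nuclear. Over the 6 classes, mt-Nd2 was lower in rhabdomyolysis without overlap in each, and it passed the test in all but monocytes, where the log2 change was -0.85 ± 0.28 (adjusted p = 0.0806). The classes share their libraries and the free RNA in them, so these 6 values are not independent.

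Whether the change of a member differed between macrophages and another class was tested by the class by group interaction in edgeR, with the library as a block. The macrophage values are shared by the 4 tests. The low count filter took both classes together, so a member could enter on its macrophage counts alone. Within a class, 81 nuclear members passed the filter in T cells, 77 in B cells, 76 in NK cells and 80 in dendritic cells. Cox6b2 entered against T and B cells with 4 and 5 UMIs in those classes. The counts below thus include members near the floor in the class set against macrophages. Against T cells, 61 of 83 tested nuclear members had a smaller change in T cells than in macrophages, where 21.6% of all genes were called, 11.2% in that direction and 10.3% in the other. The median difference was -0.80 over the nuclear members and 0.05 over all genes. Cox5a differed by -1.97 ± 0.188 (edgeR adjusted p = 3.8e-10), Ndufa11 by -1.74 ± 0.194, Uqcrq by -1.64 ± 0.185, Atp5g1 by -1.34 ± 0.191 and Ndufa12 by -1.22 ± 0.194 on the log2 scale. By complex, 32 of 46 nuclear members of complex I, 4 of 8 of complex III, 9 of 12 of complex IV and 16 of 17 of complex V had the smaller change in T cells. The 5 genes were named for the largest changes in macrophages, so their differences run large by choice. In Cox5a the T cell values were 371, 341 and 374 CPM in the control and 204, 167 and 289 CPM in the rhabdomyolysis libraries, a log2 change of -0.51 ± 0.184 that did not pass the test (edgeR adjusted p = 0.1). The 2 members with a larger change in T cells were Cox7a2l (0.75 ± 0.212), a factor of supercomplex assembly, and mt-Co1 (0.64 ± 0.166).

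Against B cells, 60 of 83 nuclear members differed, all with a smaller change in B cells, where 14.7% of all genes were called, 8.87% in that direction. Against NK cells 49 of 82 differed, all smaller (9.17% of all genes called, 7.35% smaller), and against dendritic cells 59 of 83, all smaller (16.8% called, 11.5% smaller). The median differences over the nuclear members were -1.04, -0.99 and -0.74. Fewer mt- members were called: none of 13 differed between B cells or NK cells and macrophages by edgeR or DESeq2, with 1 and 0 unadjusted p-values under 0.05, and mt-Nd1 alone differed in dendritic cells, by -0.57 ± 0.18 (edgeR adjusted p = 0.0215). A value that misses the threshold does not show that the changes were alike. Among cells of 3000 to 6000 UMIs, 34 members differed between T cells and macrophages. The share of all genes called in that window is not given, so the lower count is not a result about the members. The same holds for the NK counts that follow. The NK comparison fell to 17 members with DESeq2 and to 31 with the cells positive for both the macrophage and the monocyte list left out. It fell to 17, 16 and 25 without the first, the second and the third control library, and to 23 and 31 without the first and the second rhabdomyolysis library. Monocytes were not compared in this way, for their few control cells.

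**Figure D5:**
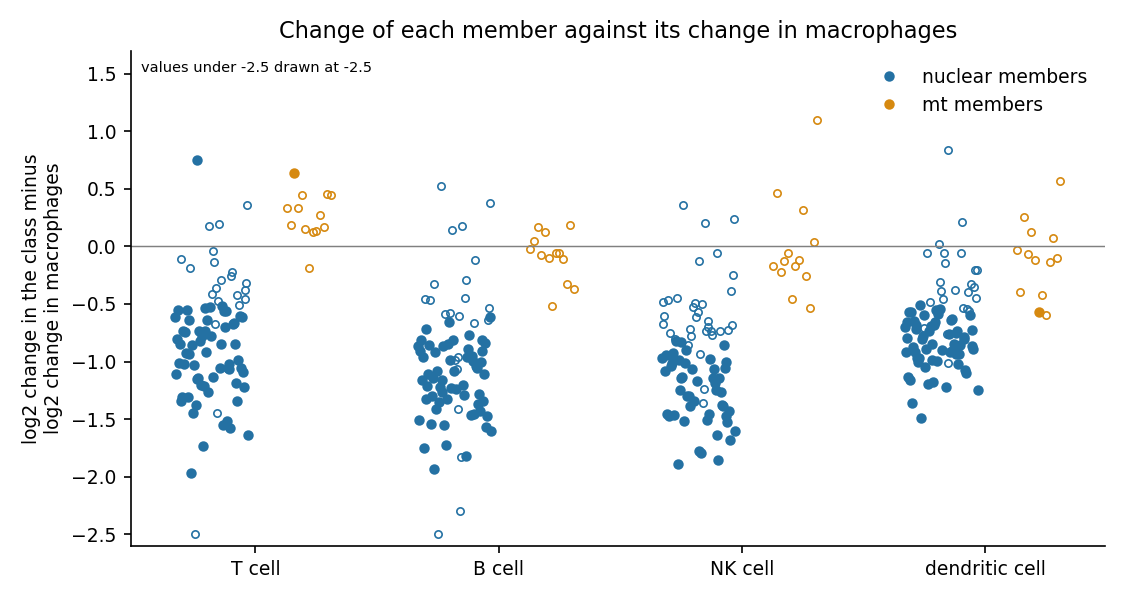
Log2 change of each member in a class minus its log2 change in macrophages (y axis), for nuclear (blue) and mt- (orange) members. Filled points passed the edgeR interaction test with BH adjustment. Blue points lie mostly below 0 in all 4 classes, and orange points on either side of it. Cox6b2 against T and B cells is drawn at the lower limit.

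Several complex IV subunits exist as paired genes, with a form made in most tissues and a form known from heart, muscle, lung or testis. UMIs count 3' ends of molecules and do not grow with the length of the message, so the levels of the forms, in CPM over all libraries of a class, are given side by side. The widely expressed forms were detected in each of the 6 classes: Cox4i1 at 624 to 988 CPM, Cox8a at 565 to 1007, Cox7a2 at 233 to 443, Cox6b1 at 253 to 514 and Cox6a1 at 120.0 to 165. The other forms were near 0. Cox4i2 reached at most 0.569 CPM, Cox7a1 at most 1.50 CPM and Cox8b 1 UMI in macrophages and none elsewhere, and no UMI of Cox7b2 or Cox8c was found in 26085678 macrophage UMIs, which allows up to 0.115 CPM by counting error. Cox6b2, a form known from testis, was at 10.8 CPM in dendritic cells and 3.80 CPM in macrophages against 0.533 CPM in T cells. In macrophages all of these common forms rose in the main test: Cox4i1 by 0.43, Cox6a1 by 0.83, Cox6b1 by 0.86, Cox7a2 by 1.04 and Cox8a by 0.80 on the log2 scale. Cox4i1 lost its call in 10 of 21 alternatives, with log2 changes from 0.21 to 0.65 and an adjusted p of up to 0.431, Cox6a1 in 3 and Cox6b1 in 1. Cox7a2l did not pass the test there, at -0.16 ± 0.297. Ndufa4l2, a relative of Ndufa4, had at most 6 UMIs in any class.

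Cox6a2, the heart and muscle form of subunit VIa, had 9 UMIs in all macrophages (0.345 CPM). In the few cells gated as plasmacytoid dendritic cells by Siglech and Pacsin1, 1 to 11 per library, it was at 2171, 1322 and 2052 CPM in the control and 633, 759 and 1766 CPM in the rhabdomyolysis libraries. The exact 95% binomial limits of counting run from 279 CPM at the lowest to 2832 CPM at the highest. Cox6a1, which was above Cox6a2 in each of the 6 main classes, was at 121, 179 and 189 CPM in the control and 146, 0 and 177 CPM in the rhabdomyolysis libraries, so that Cox6a2 was the higher of the pair in all 6 libraries. Its level in NK cells was 13.9 CPM, and at most 0.848 CPM in the other main classes. With so few cells per library no test between the groups was made.

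Genes of the pathway outside the symbol rule were counted by list in macrophages, where 20.5% of all genes were higher and 20.8% lower. Of 11 genes for complex II and the electron carriers, 8 rose and none fell, with a median log2 change of 0.83. Cycs, cytochrome c, which carries electrons from complex III to complex IV, changed by 1.74 ± 0.339, Cyc1, the cytochrome c1 of complex III, by 1.05 ± 0.225, and the complex II subunits Sdhb, Sdhc and Sdhd by 0.83 ± 0.175, 0.78 ± 0.162 and 0.93 ± 0.169 (edgeR). The catalytic subunit Sdha did not pass, at -0.30 ± 0.154. Of 31 tested assembly factors, 12 rose and 3 fell, the latter Surf1 (-0.70 ± 0.166), Acad9 (-0.68 ± 0.221) and Tmem126b (-0.58 ± 0.185), while Sdhaf1 (1.14 ± 0.248) and Tmem126a (1.21 ± 0.294) rose. Of 78 genes of the mitochondrial ribosome, which translates the mt- messages, 53 rose and none fell, with a median of 0.74. Of 18 tested genes for the expression of mitochondrial DNA and its regulators, 2 rose and 2 fell, below the share of all genes in each direction, with a median of -0.07. Slirp, which stabilises mitochondrial messages, changed by 0.79 ± 0.185 and Ssbp1, which binds single-stranded mitochondrial DNA, by 0.73 ± 0.239. The polymerase gene Polg changed by -0.56 ± 0.187, and Mterf1a, a termination factor, by -0.94 ± 0.277. Tfam (-0.07 ± 0.177), which packs mitochondrial DNA and helps to start its transcription, Nrf1 (-0.08 ± 0.244) and Gabpa (0.04 ± 0.303), an ETS factor, did not pass the test. Outside macrophages the calls among tested mitochondrial ribosome genes were near or below the share of all genes. In T cells 4 of 76 rose and 1 fell (5.56% of all genes higher), in dendritic cells 3 of 74 rose and 1 fell (7.52% higher), in monocytes 4 of 78 rose (5.28% higher), in NK cells 2 of 54 rose (2.2% higher), and in B cells none of 69 was called (2.23% higher, 2.18% lower). Their median log2 change in monocytes, with few control cells, was nonetheless 0.61, against 0.18 over all genes. It was 0.10 in dendritic cells, 0.05 in T cells, 0.11 in NK cells and -0.10 in B cells.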

How the data were processed

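The counts analysed, unique molecular identifiers (UMIs), were those the authors deposited, in unfiltered matrices of 6 libraries made with Cell Ranger 4 per the file headers and on mm10 per the submitters' processing notes. Whether intronic reads were counted is not given in the sources used here. Library totals were 10816727 to 22656666 gene UMIs.

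A barcode was kept from 500 UMIs and 200 genes upward, with mitochondrial UMIs up to 15% and Malat1 from 0.1%. A cell entered a class with at least 2 UMIs of that class's marker list and a Poisson p under 0.001 against a free RNA share of 0.3, free RNA being the mean profile of barcodes of at most 100 UMIs. Cells positive for several lists were left out, except macrophages also positive for monocyte genes, and no other doublet caller was run. Napsa, in the kidney tubule list, had UMIs in B cells, monocytes and dendritic cells, and it was left out for the gates of the last 2 of these after the data were seen. Libraries needed 20 cells of a class, and 10 in monocytes and dendritic cells, although the plan had set 20 for all classes. With 20, no control library of monocytes would have entered, and by the plan that class would have had values without a test.

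UMIs were summed per class and library and tested with edgeR 4.0.16 in R 4.3.3 (TMM scaling, its low count filter, quasi-likelihood test, Benjamini-Hochberg adjustment over all genes tested, threshold 0.05). The comparison of classes added a class by group interaction with the library as a block. Standard errors are the log2 change divided by the root of F. The named genes are the mt- members, the isoform pairs, and up to 5 rises and 5 falls per class with an adjusted p under 0.05, average log2 CPM of at least 5 and groups that do not overlap. The members, lists and rules were chosen with earlier results of these data known. The scripts were tested on simulated data. DESeq2 1.42.0 and other filters, gates and scalings were run as alternatives. In the subtraction of free RNA, a class with fewer than 10 tubule UMIs in a library took the scale of all gated cells there. Replicate numbers were not used to pair the libraries in the main tests, since no label says that a number is a shared animal or day. Results for 1 member and 1 antibody tag are not reported here.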

Additional observations from a re-analysis of the deposited data

Results flagged for a closer look

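The following values were singled out because the change of members differed between cell classes by a test of the difference itself, the class by group interaction in edgeR. The number of members whose change differed from that in macrophages was 63 of 96 for T cells and 60 of 96 for B cells. In these tests 21.6% and 14.7% of all genes were called. For NK cells it was 49 of 95 and for dendritic cells 60 of 96, where 9.17% and 16.8% of all genes were called. Of the genes named for their rise in macrophages, the change in T cells minus that in macrophages was -1.97 for Cox5a, -1.74 for Ndufa11, -1.64 for Uqcrq, -1.34 for Atp5g1 and -1.22 for Ndufa12 on the log2 scale. That rise is part of the tested difference, so the differences of these genes run large by choice. Depth per cell moved in opposite directions in the macrophages and T cells of the rhabdomyolysis libraries. Among cells of 3000 to 6000 UMIs, 34 members differed between these classes. The share of all genes called in that window is not given, and the part of depth was not tested.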

How the results depend on the processing

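No named gene that passed the test changed direction under any alternative run. Over genes, classes and alternatives, 2385 values kept their side of the threshold, 180 passed it in the main test only and 69 in the alternative only. The counts that follow are of members alone, without the share of all genes called under each alternative. In macrophages, members called numbered 70 in the main test, 42 among cells of 3000 to 6000 UMIs, and 51 to 85 without any 1 library. In monocytes the 13 became 7 with library totals and 27 without a low count filter, and 1 to 12 without any 1 library. In dendritic cells the 16 became 8 with DESeq2, 7 with at least 4 marker UMIs, 9 with at least 20 cells, 6 less free RNA, and 3 to 19 without any 1 library. In T cells the 2 became 6 with DESeq2, 9 with library totals, 6 without a filter, 4 at 3000 to 6000 UMIs, and 0 to 10 without any 1 library. In NK cells the 2 became 5 with library totals, 1 without a filter, 1 with at least 1000 UMIs, and 0 with DESeq2, a mitochondrial limit of 5%, at least 4 marker UMIs, or less free RNA, and 0 to 7 without any 1 library. In B cells the 4 became 2 with DESeq2 and 10 without a filter, and 0 to 9 without any 1 library. Against macrophages, the T cell count of 63 became 34 at 3000 to 6000 UMIs and ranged from 52 to 71 without any 1 library, the NK count of 49 became 17 with DESeq2, 31 without the cells positive for macrophage and monocyte lists, and 16 to 44 without any 1 library, and the B and dendritic cell counts of 60 each ranged from 50 to 66 and from 42 to 63. The change of the log2 mt- to nuclear ratio became -0.73 in macrophages at 3000 to 6000 UMIs, and -0.22 in monocytes and -0.11 in dendritic cells less free RNA. Without any 1 library it ranged from -1.46 to -1.07 in macrophages, -0.59 to -0.39 in monocytes, -0.64 to -0.46 in dendritic cells, -0.26 to -0.01 in T cells, -0.59 to -0.32 in NK cells and -0.45 to -0.18 in B cells. The causes were not tested. With the replicate number as a block, members called were 69 in macrophages, 13 in monocytes, 8 in dendritic cells, 1 in T cells, 0 in NK cells and 4 in B cells. Same-numbered libraries deviated together with correlations of 0.13, 0.25 and 0.08 in macrophages and at most 0.06 in the other classes, all positive. The number is not taken as a pairing, since no label gives it that meaning. Whether it marks a shared day or batch was not tested. The depth window, the subtraction without Napsa and the gates without Napsa were chosen after seeing the data, and subtraction with the full tubule list was not run.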
